A study of Mus musculus with 56 samples.

Results

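Visceral adipose tissue is threaded by capillaries, and the 10 genes described here mark the cells that line those vessels or carry the signals that those cells receive. The 10 genes are *Pecam1*, *Cdh5*, *Kdr*, *Flt1*, *Tek*, *Sox17*, *Vwf*, *Nos3*, *Vegfa* and *Angpt2*. They were chosen by name, and each of the 10 symbols matched 1 Ensembl gene among the 25939 rows of the deposited table. All 10 were expressed in every library and entered every test. The tissue came from 56 female C57BL/6J mice, aged 9 weeks, kept under a 12 h light and 12 h dark cycle. After a week of free access to chow, the mice had food only in the daytime (daytime-restricted feeding, DRF) or only in the night (nighttime-restricted feeding, NRF, the reference) for 7 days. Tissue was taken at Zeitgeber time (ZT) 0, 4, 8, 12, 16, 20 and 24, with lights on at ZT0 and off at ZT12, from 4 mice per regimen and time. Every mouse gave 1 polyA RNA library, so each time point is a separate set of animals and no animal was followed over time. No genotype differed between the groups, and the exact hours of food access are not given in the labels.

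Endothelial cells form the inner wall of all blood vessels. *Vegfa* encodes the growth factor VEGF-A, which is made by surrounding cells, adipocytes among them, and drives endothelial cells to divide and migrate. It acts mainly through the receptor encoded by *Kdr* (VEGFR2), while the receptor encoded by *Flt1* (VEGFR1) binds VEGF-A tightly and, in its soluble form, withholds it. *Tek* encodes TIE2, the receptor of the angiopoietins, and *Angpt2* encodes angiopoietin-2, a mostly endothelial product that loosens vessels by opposing angiopoietin-1 at TIE2. *Pecam1* (CD31) and *Cdh5* (VE-cadherin) encode proteins of the junctions between endothelial cells. *Vwf* encodes von Willebrand factor, an adhesive protein for platelets that endothelial cells store and release. *Sox17* encodes a transcription factor of arterial endothelium that is also made in other epithelia, including that of the uterus. *Nos3* encodes endothelial nitric oxide synthase, whose product relaxes vessel walls.

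Promoter sequence was at hand for 4 of the 10 genes, *Kdr*, *Flt1*, *Tek* and *Vegfa*, from RefSeq on GRCm38.p6. For *Vegfa* there were 2 entries, and the outermost start was used. The 250 bases before the RefSeq start are printed below because they hold the ligand of the pathway and the receptors whose transcripts are compared throughout. Searched on both strands were CACGTG (the E-box that clock factors bind), ACGTG and GCGTG (core forms of the hypoxia response element) and GGGCGG (the GC box). CACGTG contains ACGTG, so these searches overlap. Capitals mark matches to GCGTG or GGGCGG or to their reverse complements CACGC and CCGCCC, and each sequence is read 5′ to 3′ on the strand of its gene. The intervals are chr5:75978456-75978705 on the minus strand for *Kdr*, chr5:147726012-147726261 on the minus strand for *Flt1*, chr4:94739039-94739288 on the plus strand for *Tek* and chr17:46032378-46032627 on the minus strand for *Vegfa*.
Kdr: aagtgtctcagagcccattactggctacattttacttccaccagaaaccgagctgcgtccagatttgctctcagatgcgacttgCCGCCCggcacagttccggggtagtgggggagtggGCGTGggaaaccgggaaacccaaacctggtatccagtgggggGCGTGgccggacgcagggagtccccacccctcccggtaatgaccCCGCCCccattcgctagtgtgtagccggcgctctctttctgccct
Flt1: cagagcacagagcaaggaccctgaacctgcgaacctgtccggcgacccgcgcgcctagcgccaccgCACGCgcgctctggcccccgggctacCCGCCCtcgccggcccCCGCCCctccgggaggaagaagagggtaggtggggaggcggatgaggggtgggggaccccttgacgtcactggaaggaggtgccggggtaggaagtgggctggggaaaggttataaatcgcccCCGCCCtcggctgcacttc
Tek: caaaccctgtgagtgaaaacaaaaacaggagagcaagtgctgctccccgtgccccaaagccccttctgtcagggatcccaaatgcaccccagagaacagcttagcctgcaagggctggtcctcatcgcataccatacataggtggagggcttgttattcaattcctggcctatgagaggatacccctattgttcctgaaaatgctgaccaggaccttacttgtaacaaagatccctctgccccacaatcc
Vegfa: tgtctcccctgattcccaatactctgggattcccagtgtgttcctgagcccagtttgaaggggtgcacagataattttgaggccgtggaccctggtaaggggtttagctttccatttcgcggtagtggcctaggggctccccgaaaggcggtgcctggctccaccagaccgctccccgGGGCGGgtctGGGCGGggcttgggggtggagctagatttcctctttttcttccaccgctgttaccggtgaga
The *Kdr* window held 2 matches to GCGTG and 2 to GGGCGG. *Flt1* held 1 match to GCGTG and 3 to GGGCGG. *Vegfa* held 2 matches to GGGCGG, and *Tek* held no match to any of the searched motifs. Among 32851 RefSeq promoters cut to the same length, 32.7% held GGGCGG, 28.2% GCGTG, 16.6% ACGTG and 6.02% CACGTG. No window of the 4 held CACGTG or ACGTG. These matches describe letters in these windows and say nothing of binding.

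Between 31129476 and 41173587 reads per library were assigned to genes. Levels are given as counts per 1000000 (CPM) of a library size that the deposited values imply. Differences are on the scale of log2(CPM + 1). That size is not the total of assigned reads. In units of 1000000, it ran from 31.8 to 47.3 over the libraries. It was 43.1 in DRF ZT8 replicate 1, which had 31708710 assigned reads. In DRF ZT4 replicate 3, with 34771547 assigned reads, it was 32.8. A difference was called at a Benjamini-Hochberg adjusted p under 0.05 over all 25934 genes that could be used. A pair of DRF libraries stood apart. On the second principal component, which held 15.7% of the variance, DRF ZT8 replicate 1 and DRF ZT0 replicate 4 lay 10.7 and 9.52 median absolute deviations from the centre, and the next library lay 2.45 away. The summed level of 8 uterine epithelial markers was 636 and 1117 CPM in this pair and 12.5 to 78.6 CPM in the other 54 libraries. Uterine is only the name of that list, and the tissue source of these transcripts was not tested. In the same order, *Msx1* was 145 and 18.9 CPM and *Wfdc2* 84.7 and 292 CPM. The summed level of 8 adipocyte markers was 12109 CPM in DRF ZT8 replicate 1 and 17753 CPM in DRF ZT0 replicate 4, against 21336 to 45075 CPM in the others. Their part in the results was not tested, but the tests on the members were also run without both libraries.

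The 10 genes spanned a wide range of levels. Per kilobase of exon, the only scale on which genes are compared with each other here, the median over 56 libraries was 58.4 CPM for *Vegfa* and 56.9 CPM for *Cdh5*. *Pecam1* followed at 33.6, *Kdr* at 21.3, *Nos3* at 15.3, *Tek* at 13.6 and *Flt1* at 7.80 CPM per kilobase. The lowest medians were those of *Sox17* at 4.57, *Vwf* at 4.10 and *Angpt2* at 2.55 CPM per kilobase. Every neighbouring pair in this order overlapped over the libraries. The ends of the order did not, since *Angpt2* reached at most 4.72 and *Vegfa* was never under 36.4 CPM per kilobase. The fewest reads on any member in any library were 175, for *Angpt2*.

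**Figure D1:**
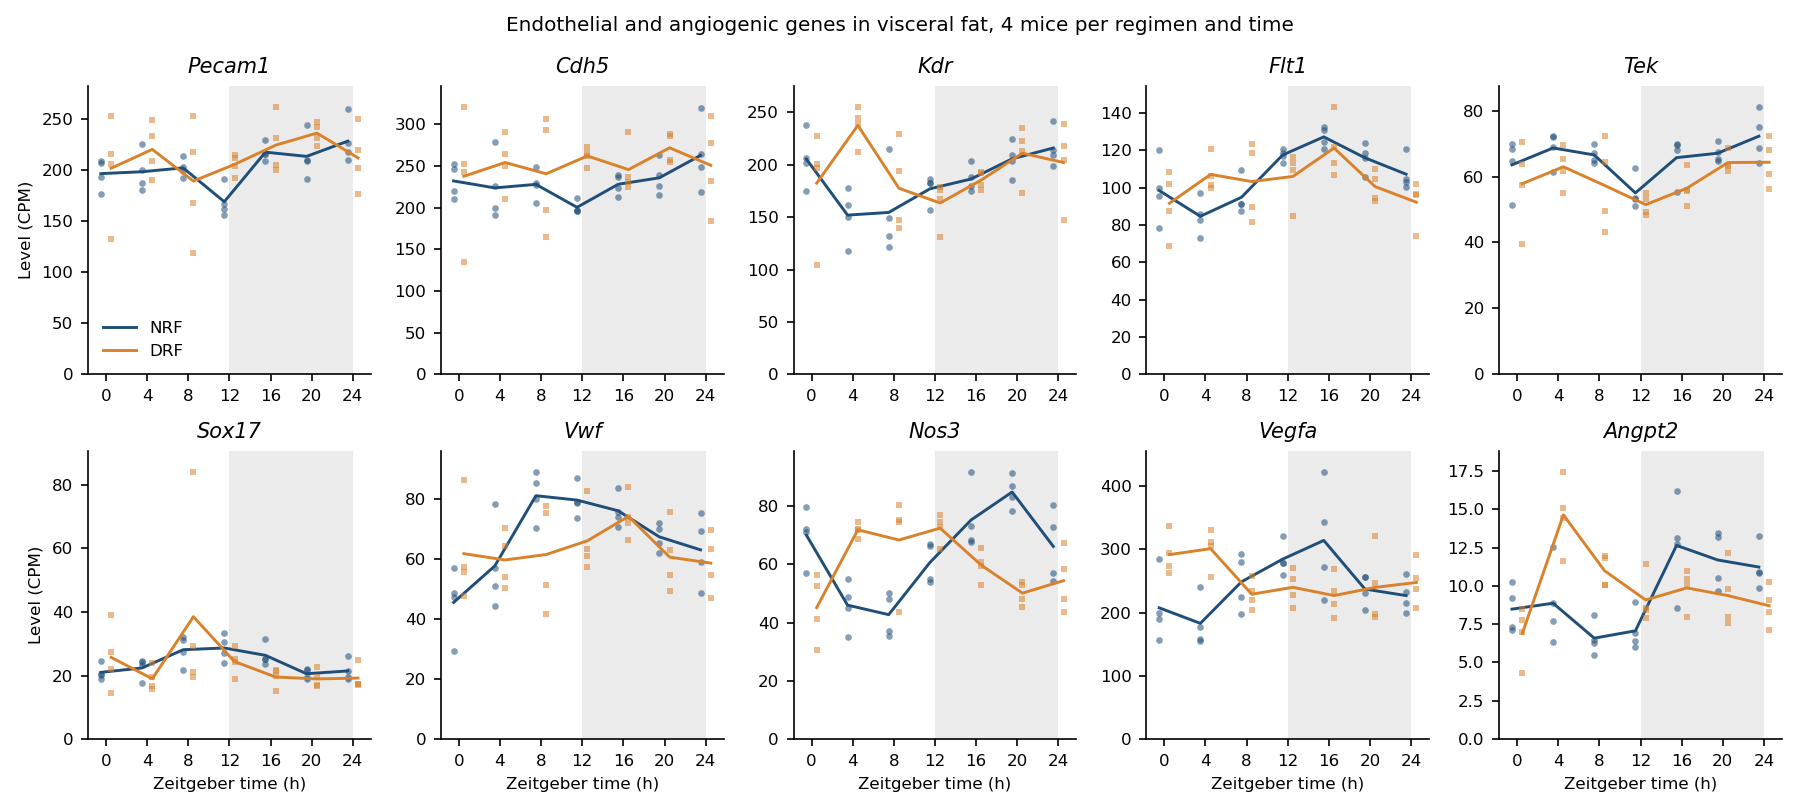
Level of each of the 10 genes in CPM (vertical axis, from 0) against Zeitgeber time in hours, with 1 point per mouse, lines through the mean of 4 mice and grey for the dark phase. *Nos3* means under NRF (blue) fell to 42.8 CPM at ZT8 and rose to 84.9 CPM at ZT20, whereas under DRF (orange) they were 68.4 CPM at ZT8 and 50.2 CPM at ZT20.

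Across the 56 mice, the junction and receptor genes moved over a narrow range. *Pecam1* lay between 119 and 261 CPM (median 209), *Cdh5* between 135 and 320 CPM (median 239) and *Tek* between 39.4 and 81.0 CPM (median 64.1). These 3 genes, together with *Kdr* and *Flt1*, had a highest value at most 2.44 times the lowest. *Sox17* had the widest ratio of the 10, at 5.82. Its highest values, 84.0 and 39.0 CPM, were those of DRF ZT8 replicate 1 and DRF ZT0 replicate 4, and the other 54 mice lay between 14.4 and 33.2 CPM. In DRF ZT0 replicate 4, *Cdh5*, *Kdr*, *Flt1*, *Tek*, *Nos3* and *Angpt2* were each at the lowest of their 56 values in CPM. As a share of the assigned reads, *Flt1* and *Tek* were not the lowest there. That library had 2802 *Flt1* and 1610 *Tek* reads of 34358320. DRF ZT24 replicate 3 had 2740 *Flt1* reads of 35871992, and DRF ZT8 replicate 3 had 1577 *Tek* reads of 36286701. In bulk tissue, fewer cells of a type and less RNA per cell cannot be told apart.

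The first comparison asked whether these genes followed food rather than light. Libraries from the middle of the feeding hours (NRF ZT16 and ZT20, DRF ZT4 and ZT8, called fed) were set against those from the middle of the fasting hours (NRF ZT4 and ZT8, DRF ZT16 and ZT20, called fasted), 16 mice on each side. The switch of access was taken to lie near ZT0 and ZT12, so those times and ZT24 were left out. The contrast is balanced over light and regimen. Transcripts of *Nos3*, *Angpt2*, *Vegfa* and *Flt1* were higher in the fed mice, and none of the 10 genes was called lower. That is 4 of 10 members called, where 24.5% of all genes were called in either direction and 12.4% were called higher. Among the 14299 genes with a mean of at least 1 CPM, called expressed genes from here on, 37.3% were called. The contrast averages over the regimens, and the *Flt1* difference was 0.44 under NRF and -0.08 under DRF.

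*Angpt2*, the angiopoietin that opposes TIE2 signalling, ran from 5.51 to 12.6 CPM in the fasted mice (median 8.03) and from 8.55 to 17.4 CPM in the fed mice (median 12.3). The ranges overlapped, with a difference of 0.49 ± 0.09 (SE, adjusted p = 2.04e-05). *Vegfa* ran from 156 to 322 CPM in the fasted mice (median 219) and from 204 to 422 CPM in the fed mice (median 257). Its ranges overlapped widely, and the difference was 0.27 ± 0.08 (adjusted p = 0.0135).

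With all libraries, *Nos3* had the largest difference of the members, whereas without replicate 3 that of *Angpt2* was larger (0.58 against 0.57). Fasted *Nos3* values ran from 35.2 to 65.7 CPM (median 49.6) and fed values from 43.6 to 91.7 CPM (median 74.6), a difference of 0.59 ± 0.08 (adjusted p = 8.27e-08). All fed mice but 1 lay above the highest fasted mouse. The exception, at 43.6 CPM, was DRF ZT8 replicate 1, and without that pair of libraries the difference was 0.64. Among the receptors, *Flt1* ran from 72.8 to 143 CPM in the fasted mice (median 95.9) and from 81.5 to 133 CPM in the fed mice (median 118). Its difference was 0.18 ± 0.06 (adjusted p = 0.0271) with overlapping ranges. *Kdr* had a difference of 0.21 ± 0.08 that missed the threshold (adjusted p = 0.0648), and without the pair of DRF libraries it was called at 0.23 (adjusted p = 0.0131). It was also called among genes with a mean of at least 1 CPM and without replicate 3.

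*Pecam1*, *Cdh5*, *Tek*, *Vwf* and *Sox17* were not called, with differences from -0.05 for *Pecam1* to 0.12 for *Sox17*. *Sox17* had 0.01 without the pair of DRF libraries. The 8 endothelial members had a median difference of 0.05 and *Vegfa* and *Angpt2* a median of 0.38, beside a median of -0.00 over all genes tested. Without the pair these medians were 0.00 and 0.39. The summed level of the 8 endothelial members had medians of 1015 CPM in the fed and 934 CPM in the fasted mice. *Flt1* and *Vegfa* were the less secure calls. Leaving out replicate 2 or replicate 4 of every group left only *Nos3* and *Angpt2* called, and so did scaling each library by its total of assigned reads, an alternative added after the data were seen. *Flt1* then had a difference of 0.14 (adjusted p = 0.0743) and *Vegfa* 0.23 (adjusted p = 0.0633).

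**Figure D2:**
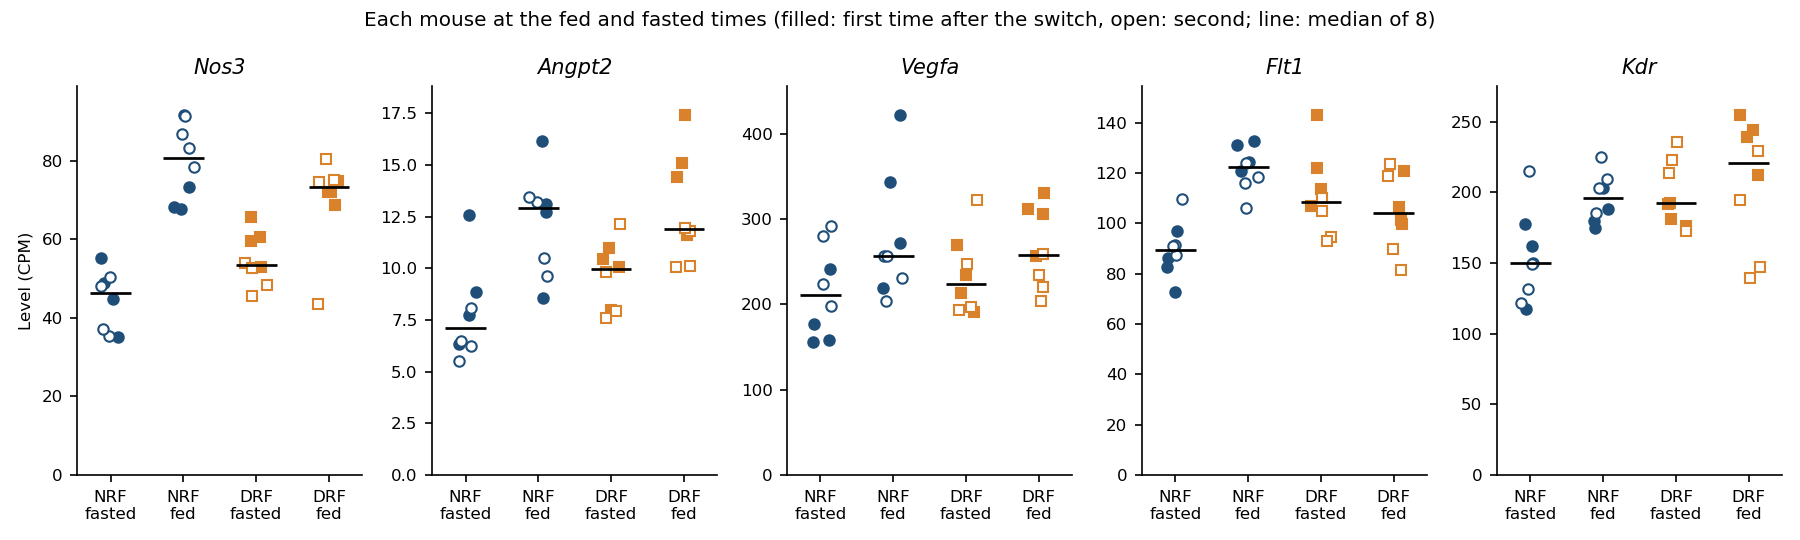
Level in CPM (vertical axis, from 0) of 5 genes in each mouse at the fasted and fed times, 8 mice per column, with a line at the median; filled points are ZT4 or ZT16 and open points ZT8 or ZT20. For *Nos3* under NRF, the fasted mice reached at most 55.1 CPM and the fed mice were at least 67.8 CPM, with no overlap.

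Within each regimen the same difference can be taken, but there fed and light cannot be told apart, because NRF mice ate in the dark and DRF mice in the light. Under NRF, 5 of 10 members were called, all higher in the fed mice, where 23.0% of all genes and 35.3% of expressed genes were called. Of all genes 11.8% were higher and 11.2% lower, or 8.44% and 15.9% with scaling by total reads. *Nos3* ran from 35.2 to 55.1 CPM in the 8 fasted NRF mice (median 46.5) and from 67.8 to 91.7 CPM in the 8 fed mice (median 80.7). These ranges did not overlap, and the difference was 0.85 ± 0.11 (adjusted p = 1.22e-07). *Flt1* ran from 72.8 to 110 CPM fasted and from 106 to 133 CPM fed, so that only the highest fasted mouse reached into the fed range (difference 0.44 ± 0.09). *Angpt2* differed by 0.61 ± 0.12, *Kdr* by 0.37 ± 0.12 and *Vegfa* by 0.35 ± 0.12, each with overlapping ranges. *Nos3*, *Flt1* and *Angpt2* stayed called without any replicate number, whereas *Kdr* was lost without replicate 1 or 2 and *Vegfa* without replicate 2 or 4. Both were lost with scaling by total reads. Markers of other cell types differed under NRF too, with 1 of 8 adipocyte markers called higher and 2 lower in the fed mice, 1 higher and 1 lower of both the 8 immune and the 6 progenitor markers, and 1 of 10 mural markers higher. Their part in the differences of the members was not tested.

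Under DRF, 2 of 10 members were called, where 18.2% of all genes (9.19% higher) and 28.1% of expressed genes were called. They were *Nos3*, at 0.34 ± 0.11 (adjusted p = 0.0298), and *Angpt2*, at 0.37 ± 0.12 (adjusted p = 0.0290). *Angpt2* ran from 7.58 to 12.1 CPM in the 8 fasted DRF mice (median 9.94) and from 10.1 to 17.4 CPM in the 8 fed mice (median 11.9). Both calls were lost without replicate 2 and without replicate 4, and in addition *Angpt2* without replicate 1 and *Nos3* without replicate 3. *Flt1* had a difference of -0.08 ± 0.09 and *Kdr* of 0.04 ± 0.12 there. *Vegfa* had 0.19 ± 0.12 (adjusted p = 0.322). Of the markers of other cell types, 1 of 6 progenitor markers was called higher and 2 lower, and 1 was higher and 1 lower in each of the lymphatic (6), adipocyte (8) and mural (10) lists. Their part was not tested.

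Whether the fed to fasted difference itself depended on the regimen was tested by the contrast of light (ZT4 and ZT8) with dark (ZT16 and ZT20) over both regimens, which is the interaction of feeding with regimen. *Flt1* was lower in the light, with a difference of -0.26 ± 0.06 (adjusted p = 0.00404), and so was *Nos3*, at -0.26 ± 0.08 (adjusted p = 0.0272). That is 2 of 10 members, beside 12.2% of all genes and 18.8% of expressed genes. Of all genes 6.07% were lower in the light, or 3.74% with scaling by total reads, which kept both calls. The *Flt1* call held when each replicate number was left out in turn. The *Nos3* call was lost each time, at adjusted p values from 0.0504 to 0.142. For *Angpt2*, *Vegfa* and *Kdr*, a call under NRF is not shown to differ from DRF, since this test gave adjusted p values of 0.444, 0.598 and 0.210. Among markers of other cell types, 2 of 6 lymphatic markers were called lower in the light and 1 of 8 immune markers higher. The progenitor (6) and mural (10) lists had 1 higher and 1 lower each. Their part was not tested.

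**Figure D3:**
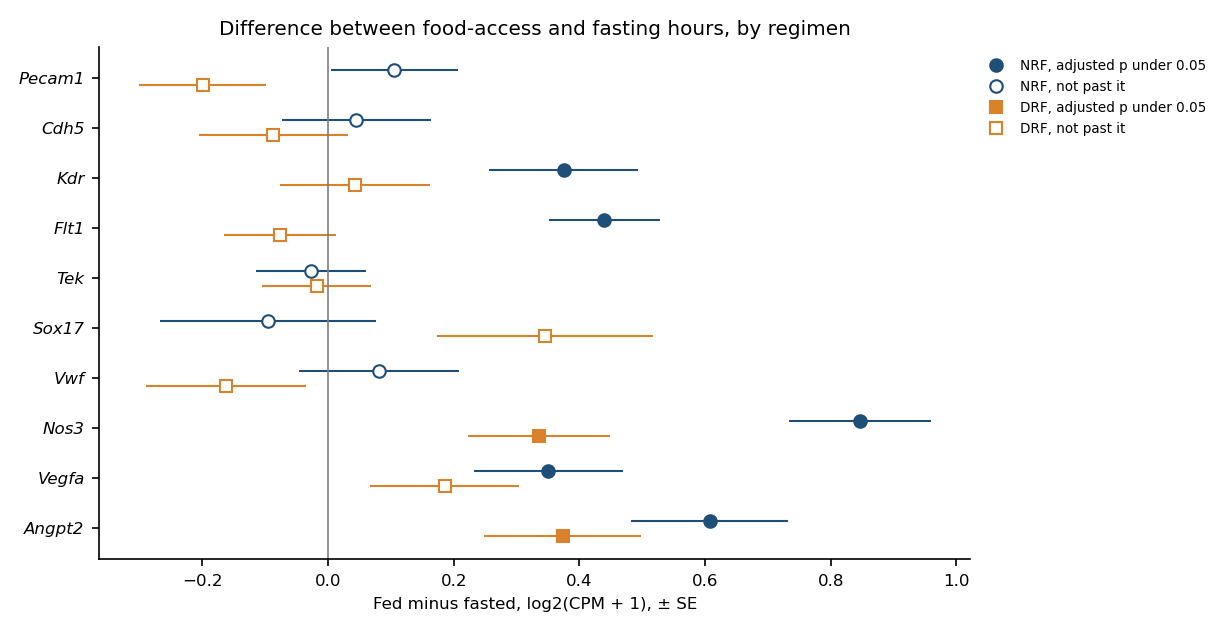
Fed minus fasted on the log2(CPM + 1) scale (horizontal axis) with its SE for each gene, fitted by limma within NRF (blue circles) and within DRF (orange squares), filled where the adjusted p was under 0.05. *Nos3* stood at 0.85 under NRF and 0.34 under DRF, and *Flt1* at 0.44 and -0.08.

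The regimens were next compared at the same clock time, 4 DRF against 4 NRF mice at each of 7 times. Of 70 tests on the members, 9 were called, 4 of them at ZT4. At that time 19.4% of all genes and 31.6% of expressed genes were called. Of all genes 10.4% were higher and 9.04% lower under DRF, or 5.46% and 16.4% with scaling by total reads, which kept the 4 calls. *Vegfa* was 330, 311, 306 and 257 CPM in the DRF mice and 241, 177, 158 and 156 CPM in the NRF mice. In CPM the groups did not overlap, and the difference was 0.73 ± 0.17 (adjusted p = 0.00126). As a share of the assigned reads they did. NRF replicate 1 had 9712 *Vegfa* reads of 36602824, and DRF replicate 4 had 8751 of 36369241. *Kdr*, the main receptor of VEGF-A, was 255, 239, 244 and 212 CPM under DRF and 178, 162, 118 and 150 CPM under NRF. Its groups did not overlap in CPM (0.65 ± 0.17, adjusted p = 0.00396).

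*Nos3* at ZT4 was 74.8, 72.0, 72.2 and 68.7 CPM under DRF and 55.1, 48.9, 35.2 and 44.9 CPM under NRF, without overlap (0.65 ± 0.16, adjusted p = 0.00254). *Angpt2* was 17.4, 15.1, 11.6 and 14.4 CPM under DRF and 12.6, 8.86, 6.32 and 7.72 CPM under NRF (0.69 ± 0.18, adjusted p = 0.00382). Its groups overlapped through the highest NRF mouse. *Flt1* lay just above the threshold on adjusted p, with a difference of 0.34 ± 0.13 (adjusted p = 0.05004) and was not called, though it was without the pair of DRF libraries (adjusted p = 0.0217), with a pseudocount of 0.1, with median-of-ratios scaling and among expressed genes alone. Leaving out replicate 3 of every group took away the calls of *Kdr* and *Nos3* at ZT4. Markers of other cell types also differed at that time. The summed level of 6 progenitor markers ran from 1733 to 1939 CPM under DRF and from 2217 to 3411 CPM under NRF, with 3 of the 6 called lower and a median difference of -0.58. That of 6 mesothelial markers ran from 275 to 430 CPM and from 442 to 671 CPM, with 2 of 6 called lower and a median of -0.68. That of 6 lymphatic markers ran from 79.8 to 85.35 CPM and from 85.39 to 130 CPM, with 1 called lower. None of these 3 sums overlapped between the regimens. That of 8 immune markers was the higher one under DRF, at 358 to 601 CPM against 188 to 379 CPM, although 2 of the 8 were called lower and 1 higher. Of 8 adipocyte markers 1 was called higher and 1 lower (median 0.22), and of 10 mural markers 1 was called higher (median -0.13). Their part in the differences of the members was not tested.

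At ZT8, 2 members were called higher under DRF, where 16.5% of all genes (8.99% higher) and 26.0% of expressed genes were called. *Angpt2* was 10.1, 11.8, 10.1 and 12.0 CPM under DRF and 6.48, 6.26, 8.10 and 5.51 CPM under NRF, without overlap (0.67 ± 0.18, adjusted p = 0.00593). *Nos3* was 43.6, 75.2, 80.4 and 74.5 CPM under DRF and 48.1, 35.4, 50.3 and 37.2 CPM under NRF (0.64 ± 0.16, adjusted p = 0.00321). The low DRF value was that of replicate 1, the library with uterine epithelial markers, and without that pair the difference was 0.84. Both calls were lost without replicate 2, and *Angpt2* also without replicate 4. Of 8 adipocyte markers, 5 were lower and 1 higher under DRF at ZT8, with a median difference of -0.60, and their sum ran from 12109 to 30672 CPM under DRF and from 32855 to 44277 CPM under NRF. Without the pair of DRF libraries, 2 were lower and 1 higher, with a median of -0.26. Other lists differed at ZT8 as well. Of 6 lymphatic markers 2 were called higher, or 1 without the pair. All 6 progenitor markers were below 0 (median -0.25, 1 called lower). The immune (8) and mural (10) lists had 1 marker called higher each, and without the pair 3 mural markers were also lower. Of 8 uterine markers 7 were above 0 (median 1.23), or 2 without the pair. Their part in the differences of the members was not tested.

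In the dark, *Nos3* was the reverse. At ZT20 it was 54.1, 48.3, 52.8 and 45.5 CPM under DRF and 86.8, 91.3, 83.2 and 78.3 CPM under NRF, a difference of -0.75 ± 0.16 (adjusted p = 7.02e-04) without overlap. It was the only member called at ZT20, where 13.1% of all genes (6.40% lower) and 20.6% of expressed genes were called. At that time all 6 progenitor markers were below 0 (median -0.23), with 0 called, and 1 of 6 mesothelial markers was above 0 (median -0.21). Of 8 adipocyte markers 1 was called higher and 1 lower, and of 8 immune markers 1 was called lower. Their part was not tested. At ZT12, ZT16 and ZT24, where 16.1%, 9.97% and 11.3% of all genes were called, limma called no member. At an unadjusted p under 0.05 there were 1 (*Cdh5* at ZT12), 2 (*Nos3* and *Vegfa* at ZT16) and 0 members. *Cdh5* was called at ZT12 with the pair of DRF libraries left out (0.39, adjusted p = 0.0466), and *Vegfa* at ZT16 without replicate 3. With all libraries at ZT12, 1 of 8 adipocyte markers was called higher and 4 lower (median -0.60). Of 6 progenitor markers 2 were called lower, and the immune (8) and lymphatic (6) lists had 1 called higher each. Their part was not tested.

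The 2 members called at ZT0, where 10.5% of all genes (5.41% higher, 5.06% lower) and 16.1% of expressed genes were called, moved in opposite directions. *Nos3* was 56.3, 52.7, 41.2 and 30.6 CPM under DRF and 57.2, 79.7, 72.2 and 71.3 CPM under NRF, with no overlap (-0.65 ± 0.16, adjusted p = 0.00523). *Vegfa* was 294, 337, 262 and 274 CPM under DRF and 156, 190, 285 and 199 CPM under NRF, with overlap through 1 NRF mouse (0.52 ± 0.17, adjusted p = 0.0379). ZT24 is the same clock time a day later in other mice, and neither was called there. *Nos3* had a difference of -0.28 ± 0.16 (adjusted p = 0.296) and *Vegfa* of 0.12 ± 0.17 (adjusted p = 0.741) at ZT24. The lowest *Nos3* value at ZT0 was that of DRF replicate 4, the other library of the pair, and without the pair the difference at ZT0 was -0.48 (adjusted p = 0.0197). The *Nos3* call was lost without replicate 2 or 4, and that of *Vegfa* without replicate 1, 2 or 4. All 6 mesothelial markers were below 0 at ZT0 (median -0.58, 1 called lower), and 7 of 8 uterine markers were above 0 (median 0.39). The adipocyte and lymphatic lists had 1 marker called lower each and the immune list 1 called higher. Their part was not tested.

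The step from the end of the fast into the feeding hours was compared last, by a contrast added after the values were seen. From ZT0 to ZT4 under DRF, *Angpt2* went from 7.78, 8.49, 7.00 and 4.28 CPM to 17.4, 15.1, 11.6 and 14.4 CPM, without overlap (1.01 ± 0.18, adjusted p = 5.68e-05). *Nos3* rose by 0.70 ± 0.16 over the same step (adjusted p = 0.00160), from at most 56.3 to at least 68.7 CPM. In other DRF mice at ZT24, the clock time of ZT0, *Nos3* ran from 43.8 to 67.2 CPM and *Angpt2* from 7.14 to 10.3 CPM. Mean log2(CPM + 1) at ZT0, ZT24 and ZT4 was 5.49, 5.77 and 6.19 for *Nos3*. For *Angpt2* it was 2.95, 3.27 and 3.95, and ZT4 was not tested against ZT24. The lowest ZT0 value of both genes was that of DRF replicate 4, a library of the pair. With the pair left out, *Angpt2* rose by 0.83 (adjusted p = 0.00103) and *Nos3* by 0.53 (adjusted p = 0.00767). Over the same step none of 8 uterine markers was above 0 (median -0.50, 1 called lower) and 7 of 8 adipocyte markers were (median 0.18, 1 called higher), and their part was not tested. Those were 2 of 10 members, beside 17.9% of all genes and 27.4% of expressed genes. Of all genes 8.99% rose, 2332 against 2298 that fell, or 1089 against 3252 with scaling by total reads, which kept both calls. From ZT12 to ZT16 under NRF, only *Angpt2* was called, beside 7.65% of all genes (3.84% that rose) and 12.4% of expressed genes. It went from 6.91, 6.01, 6.42 and 8.93 CPM to 12.7, 16.2, 8.55 and 13.1 CPM (0.74 ± 0.18, adjusted p = 0.00409). Those groups overlapped slightly, and the call was lost without replicate 2 (0.56, adjusted p = 0.214). Over this NRF step 1 of 8 adipocyte markers was called higher and 1 lower, and their part was not tested. *Vegfa* had differences of 0.05 and 0.10 over these steps and was called in neither.

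Averaged over the 7 times, 1 of the 10 members differed between the regimens, where 22.2% of all genes and 34.4% of expressed genes were called. Of all genes 11.8% were higher and 10.5% lower under DRF, or 8.24% and 15.2% with scaling by total reads, which kept the call. It was *Tek*, the angiopoietin receptor. It ran from 51.0 to 81.0 CPM under NRF (median 67.4) and from 39.4 to 72.3 CPM under DRF (median 61.3), 28 mice each. The ranges overlapped between 51.0 and 72.3 CPM, and *Tek* was lower under DRF by a difference of -0.15 ± 0.05 (adjusted p = 0.0144). Without the pair of DRF libraries, 3 members were called: *Tek* at -0.12 (adjusted p = 0.0248), *Sox17* at -0.21 (adjusted p = 0.00949) and *Cdh5* at 0.16 (adjusted p = 0.0206). The *Tek* call was lost without replicate 3 and without replicate 4, and the differences then were -0.13 and -0.11. *Cdh5* was called in its place without replicate 4. Differences of the other 9 members with all libraries ran from -0.11 for *Sox17* to 0.12 for *Cdh5*.

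Rhythms with a period of 24 h were tested within each regimen by JTK_CYCLE and Lomb-Scargle, combined as MetaCycle does. Under NRF, 7 of 10 members passed, where 28.9% of all genes and 45.0% of expressed genes passed. *Flt1* (adjusted p = 2.12e-05) and *Nos3* (adjusted p = 2.99e-05) passed most clearly, followed by *Sox17* (0.00180), *Vwf* (0.00212), *Angpt2* (0.00277), *Vegfa* (0.00928) and *Kdr* (0.0130). The junction genes *Pecam1* and *Cdh5* and the receptor *Tek* did not pass, at adjusted p values of 0.360, 0.264 and 0.648. For *Sox17*, a cosine tested by limma did not pass (adjusted p = 0.0863). *Sox17*, *Nos3*, *Flt1* and *Vwf* passed without any replicate number. *Kdr* was lost without replicate 1, 2 or 4, *Vegfa* without 2 or 4 and *Angpt2* without 4.

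The order of the fitted peaks under NRF ran through the night. *Sox17* peaked at ZT 11.1, *Vwf* at 12.5, *Vegfa* at 14.6, *Flt1* at 16.5, *Nos3* at 18.9, *Angpt2* at 19.7 and *Kdr* at 20.1, with SEs from 0.46 to 1.63 h. Intervals of 1 SE around neighbouring peaks overlapped for *Sox17* and *Vwf* and for *Nos3*, *Angpt2* and *Kdr*, and differences between genes were not tested. Of these 7 peaks, 6 fell between ZT12 and ZT24, as did 52.1% of the peaks of all genes that passed under NRF. The fitted peak over trough was taken as a ratio of CPM + 1, not of CPM. It was 2.003 for *Nos3*, 1.71 for *Angpt2*, 1.57 for *Vwf*, 1.56 for *Vegfa*, 1.46 for *Flt1*, 1.42 for *Kdr* and 1.395 for *Sox17*. In measured means, *Vwf* under NRF went from 45.5 ± 11.6 CPM at ZT0 to 80.9 ± 8.0 CPM at ZT8 (SD, n = 4). At ZT24, the same clock time as ZT0 in other mice, it was 62.9 ± 11.6 CPM.

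Under DRF, *Nos3* was the only member to pass (adjusted p = 0.0183), where 15.2% of all genes and 23.7% of expressed genes did, and the other 9 had adjusted p values from 0.185 upwards. Its peak moved from ZT 18.9 under NRF to ZT 9.36 under DRF, a shift of -9.49 ± 0.94 h with a 95% interval from -11.3 to -7.65 h (adjusted p = 2.46e-13). Of the 2443 genes that passed under both regimens, 95.6% had a called shift. The DRF rhythm of *Nos3* no longer passed without replicate 2, 3 or 4 or without the ZT24 libraries. The fitted shift stayed between -9.88 and -8.84 h in those settings, with no test since a shift was tested only where both rhythms passed. A cosine tested by limma passed for *Nos3* under DRF with all libraries (adjusted p = 5.21e-04) and in each of those settings.

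Passing under a single regimen only is no test of a difference, so the rhythms were also compared directly with limma. The rhythm differed between the regimens for *Nos3* (adjusted p = 5.60e-09), *Vegfa* (adjusted p = 7.14e-05) and *Angpt2* (adjusted p = 1.92e-04), 3 of 10 members beside 36.0% of all genes and 53.4% of expressed genes. *Vegfa* had a fitted peak at ZT 14.6 ± 0.80 h under NRF and at 2.71 ± 1.55 h under DRF. *Angpt2* had one at ZT 19.7 ± 0.81 h under NRF and at 7.59 ± 1.33 h under DRF. The DRF rhythms of *Vegfa* and *Angpt2* did not pass, so their shifts were not tested. Without the pair of DRF libraries, 5 members differed, with *Flt1* (adjusted p = 0.0110) and *Kdr* (adjusted p = 0.0303) added. No member was called for a difference in amplitude by the Wald test of the cosine fit, beside 1.44% of all genes. At an unadjusted p under 0.05 there were 2, *Nos3* and *Flt1*, both with the smaller amplitude under DRF.

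**Figure D4:**
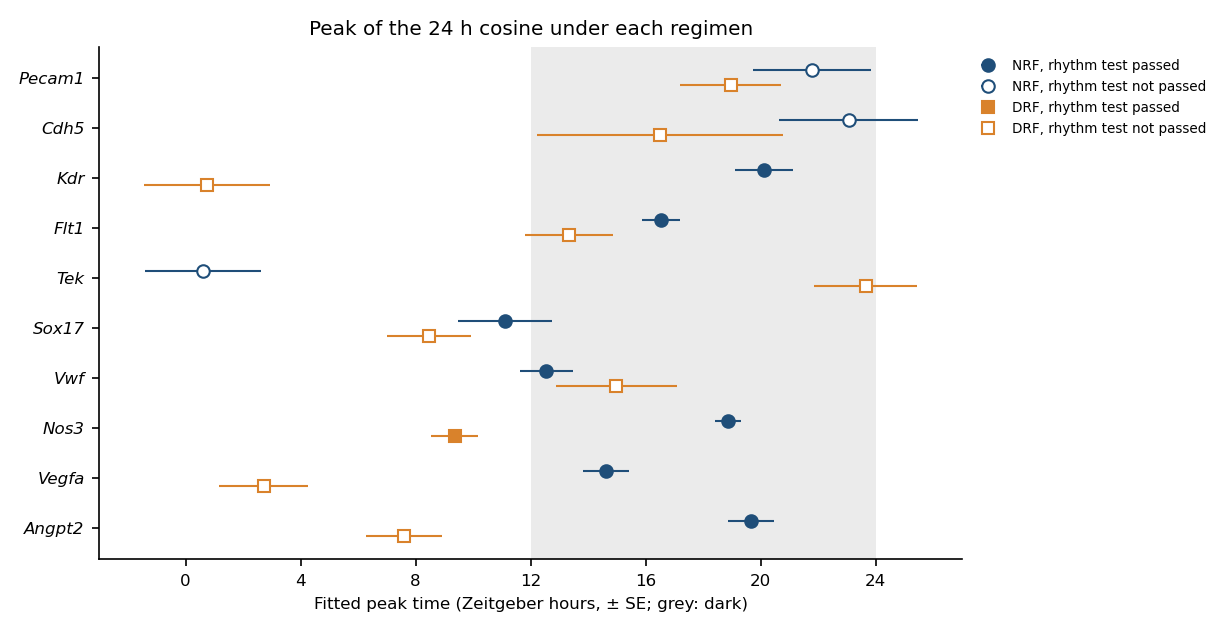
Fitted peak time in Zeitgeber hours (horizontal axis, grey for dark) with its SE for each gene under NRF (blue circles) and DRF (orange squares), filled where the rhythm passed its test. Filled circles run from ZT 11.1 for *Sox17* to 20.1 for *Kdr*, and the only filled square is *Nos3* at 9.36.

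The members also varied between mice of the same regimen and time. After the mean of each of the 14 groups was taken away, *Pecam1* was compared with the other 9 members over 56 mice, by permutation within groups and with p adjusted over the 9 relations. *Cdh5*, the other junction gene, moved with *Pecam1* most closely (Pearson r = 0.93, Spearman rho = 0.90). The raw p of 1e-05 was the smallest that 100000 permutations can give, and the adjusted p was 9e-05. Without the 2 mice farthest from the median of *Pecam1*, r was 0.91. *Tek* (r = 0.76, rho = 0.60, raw p = 3.00e-05, adjusted p = 1.35e-04) and *Vwf* (r = 0.60, rho = 0.53, raw p = 5.20e-04, adjusted p = 0.00156) followed. Without those 2 mice, r was 0.65 for *Tek* and 0.52 for *Vwf*.

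*Kdr* (r = 0.56, rho = 0.40, raw p = 0.00429, adjusted p = 0.00868), *Flt1* (r = 0.53, rho = 0.44, raw p = 0.00729, adjusted p = 0.0109) and *Angpt2* (r = 0.39, rho = 0.39, raw p = 0.00482, adjusted p = 0.00868) passed as well. Their r without the 2 extreme mice was 0.40, 0.43 and 0.30. *Nos3* (r = 0.26, rho = 0.17, raw p = 0.272, adjusted p = 0.349), *Sox17* (r = 0.05, rho = 0.29, raw p = 0.890, adjusted p = 0.905) and *Vegfa* (r = 0.01, rho = 0.06, raw p = 0.905) did not pass. Part of this rested on the pair of DRF libraries. Without them *Kdr* (r = 0.39, adjusted p = 0.0664) and *Angpt2* (r = 0.25, adjusted p = 0.0605) no longer passed, and *Sox17* did (r = 0.51, adjusted p = 0.00259).

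The rest of the pathway was read from lists of named genes, by fed minus fasted, where 24.5% of all genes were called (12.4% higher) and 37.3% of expressed genes. No list was tested against these shares. The 34 differences named by rule in the lists, for fed minus fasted and for the mean over the day, kept their call and direction without the pair of DRF libraries and with scaling by total reads. In the VEGF family outside the members, 5 of 7 genes were called, 4 higher and 1 lower in the fed mice, with a median difference of 0.19 beside -0.00 over all genes. *Nrp2*, a co-receptor of VEGFs, ran from 44.7 to 77.5 CPM fasted (median 65.8) and from 53.8 to 98.1 CPM fed (median 80.3), a difference of 0.32 ± 0.07. *Flt4*, the receptor of VEGF-C on lymphatic vessels, differed by 0.31 ± 0.09 and *Pgf*, a ligand of VEGFR1, by 0.30 ± 0.09. The lower gene, *Vegfd*, had -0.25 ± 0.07 and was named after its value was seen. Of 4 genes of the angiopoietin and TIE group, 1 was higher and 1 lower. *Angpt1*, which activates TIE2 and is opposed there by angiopoietin-2, fell by 0.56 in the fed mice (adjusted p = 2.51e-05), from 13.0 to 25.3 CPM fasted (median 19.4) to 7.22 to 20.3 CPM fed (median 12.9). *Ptprb*, an endothelial phosphatase that acts on TIE2, was higher by 0.25 ± 0.07. *Angpt1* was also lower under DRF on average over the day (-0.38 ± 0.08, adjusted p = 2.47e-04).

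Genes of Notch signalling and of sprouting tip cells were called in 6 of 11 cases, 5 higher and 1 lower, with a median of 0.22, beside 24.5% of all genes and 37.3% of expressed genes. *Apln*, the apelin ligand found in tip cells and in adipocytes, ran from 4.23 to 24.5 CPM fasted (median 15.5) and from 26.3 to 73.3 CPM fed (median 44.4). The groups did not overlap (1.58 ± 0.17, adjusted p = 6.12e-10). *Esm1*, a tip cell product (0.61 ± 0.16), and *Jag2*, a Notch ligand (0.48 ± 0.08), were higher in the fed mice as well. Among 9 inhibitors of angiogenesis, 4 were higher and 2 lower, with a median of -0.06, beside the same shares. *Spry4*, an inhibitor of receptor kinase signalling, was higher by 1.53 ± 0.16 and *Vash1* (vasohibin 1) by 0.73 ± 0.13. *Thbs1* (thrombospondin 1) was lower, at 47.1 to 433 CPM fasted and 32.7 to 147 CPM fed (-1.16 ± 0.23, adjusted p = 9.22e-05).

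Endothelial surface genes were called in 8 of 30 cases, 5 higher and 3 lower, with a median of -0.01. That is near the 24.5% of all genes and below the 37.3% of expressed genes. *Cldn5*, the main claudin of endothelial tight junctions, ran from 79.3 to 188 CPM fasted (median 141) and from 25.01 to 85.5 CPM fed (median 67.4), and the groups overlapped only between 79.3 and 85.5 CPM (-1.09 ± 0.14, adjusted p = 1.64e-08). *Emcn*, an endothelial sialomucin, went the other way, from 27.4 to 37.0 CPM fasted and 37.5 to 60.4 CPM fed without overlap (0.53 ± 0.06, adjusted p = 5.72e-09). *Cd93* was higher by 0.33 ± 0.09. Averaged over the day, 8 of these 30 genes were called, 7 of them lower under DRF, where 22.2% of all genes (10.5% lower) and 34.4% of expressed genes were called. The count was 11 without the pair of DRF libraries, 8 lower and 3 higher, beside 28.8% of all genes. *Vcam1*, an adhesion molecule for leukocytes, had the largest of these differences (-0.48 ± 0.06), followed by *Thbd* (thrombomodulin, -0.31 ± 0.05) and *Jam2* (-0.27 ± 0.05). Markers of other cell types differed as well. Of 6 progenitor markers, 4 were lower under DRF and all 6 differences were below 0 (median -0.24), and of 6 mesothelial markers 3 were lower and all 6 were below 0 (median -0.26). Of 10 mural markers, 2 were lower and 1 higher (median -0.19), and without the pair 5 were lower and 1 higher. Of 8 immune markers 2 were higher and 2 lower, and their sum had medians of 362 CPM under DRF and 266 CPM under NRF. Of 8 adipocyte markers 1 was higher and 2 lower (median 0.00), and of 6 lymphatic markers 1 was lower (median 0.07). Their part in the differences was not tested. For fed minus fasted again, 1 of 15 endothelial transcription factors was called, *Klf2*, which responds to blood flow (0.30 ± 0.09, adjusted p = 0.0127), and 13 of the 15 differences were above 0, as were 52.1% of those of expressed genes, with no test of the list. Without the pair of DRF libraries 3 of the 15 were called, 2 higher and 1 lower.

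In the nitric oxide list, 3 of 12 genes were called, beside 24.5% of all genes. The count was 7 without the pair of DRF libraries, 3 higher and 4 lower, beside 28.1% of all genes. *Hsp90aa1*, a chaperone that binds the synthase, was higher in the fed mice by 0.45 ± 0.09, and *Gucy1a1*, a subunit of the nitric oxide receptor, and *Nosip* were lower (-0.25 ± 0.06 and -0.13 ± 0.03). In the hypoxia response list, 8 of 14 were called, 6 higher and 2 lower, with a median of 0.07, beside 37.3% of expressed genes. *Hif1a*, the oxygen-sensitive transcription factor, ran from 49.5 to 82.8 CPM fasted (median 65.3) and from 79.2 to 128 CPM fed (median 107), a difference of 0.64 ± 0.06 (adjusted p = 4.65e-12). *Bnip3* (-0.43 ± 0.14) and *Vldlr* (-0.40 ± 0.07) were lower, so the list did not move in a single direction. Markers of other cell types also moved between these groups. Of 8 adipocyte markers, *Lep* was higher and *Lipe* lower, and 3 of 10 mural markers were higher, although only 4 of the 10 differences were above 0 (median -0.11). When the pair of DRF libraries was left out, 3 mural markers were higher and 2 lower. Of 6 lymphatic markers, 1 (*Flt4*) was higher, and at most 1 gene passed in each of the progenitor, mesothelial, immune and uterine lists. Their part in the differences of the members was not tested.

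**Figure D5:**
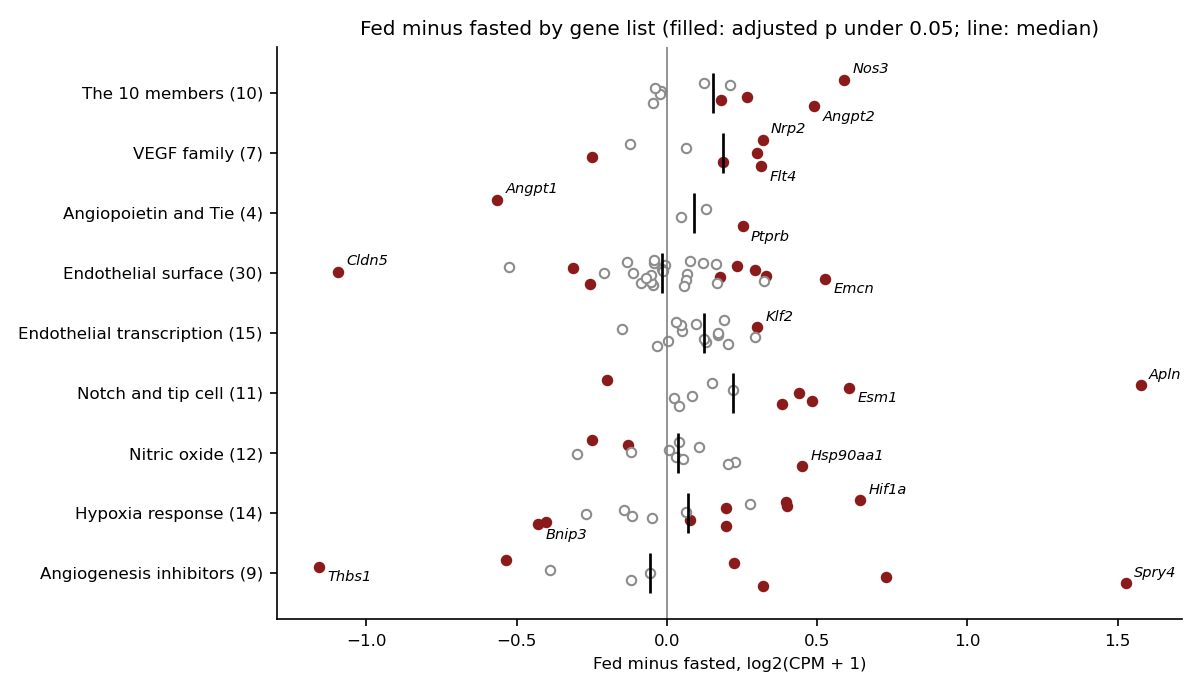
Fed minus fasted on the log2(CPM + 1) scale (horizontal axis) for each gene of the members and of 8 lists, with the number of genes in brackets, filled where the limma adjusted p was under 0.05 and with a line at the list's median. Medians lie between -0.06 for the angiogenesis inhibitors and 0.22 for the Notch and tip cell genes, and single genes range from *Thbs1* at -1.16 to *Apln* at 1.58.

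The pair of genes with the pattern most like that of *Vegfa* over the 14 group means, among 14092 genes, were *Fdft1* (Pearson r = 0.90) and *Tcf25* (0.90). For *Angpt2* the 5 most alike were *Hspb8* (0.93), *Cyb5d1* (0.92), *Dffa* (0.91), *Wdr12* (0.90) and *Dhx8* (0.90). For the mean of the 8 endothelial members they were *Ptprb* (0.94), *Mknk1* (0.90), *Notch2* (0.90), *Alg11* (0.89) and *Cry2* (0.89). Among the members themselves, *Pecam1* and *Cdh5* had r = 0.81, *Nos3* and *Angpt2* 0.72, *Flt1* and *Nos3* 0.69 and *Pecam1* and *Sox17* -0.72. These values are a description over 14 groups that share the regimens and the same libraries, and they include the pair of DRF libraries.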

How the data were processed

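The authors aligned paired reads of polyA RNA to mm10 with HISAT2 2.0.5 and counted them with featureCounts 1.5.0-p3, per the submitters' processing notes. The deposited score per gene and library is named TPM but follows log2(CPM + 1) divided by exon length and rescaled by the authors within each library. It was undone with GENCODE lengths, and 99.998% of 1424939 values tested came out within 0.02 of a whole read. Depth was 31129476 to 41173587 reads per library, and no count test was run. CPM used the library size that the deposited values imply, which differs from the total of assigned reads. limma 3.58.1 (R 4.3.3, intensity trend) fitted 14 group means on log2(CPM + 1), pseudocount 1, without a filter, for 25934 genes. The other 5 rows gave no length. Rhythm tests on the deposited score followed MetaCycle, re-implemented in Python 3.11.15 (numpy 2.4.6, pandas 2.3.3, scipy 1.17.1), and phases came from cosine least squares with a period of 24 h. Scripts were tested on simulated data. Figures used matplotlib 3.10.9.

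The labels say nothing of shared cages, so p-values measure the spread between single mice. The library kit does not mark strand, so reads of overlapping antisense genes were not told apart. Members and lists were chosen with earlier results of these data known. Named by rule were the 10 members, up to 3 called genes with the largest difference per list, for mean level and fed minus fasted, and the 5 genes most like each of 3 patterns over group means with a mean log2 of at least 1. Part of 1 of these lists is not reported here. Alternatives were a pseudocount of 0.1, median-of-ratios scaling, voom weights, a minimum mean of 1 CPM, a replicate block, omission of each replicate number, of ZT24 and of the pair of DRF libraries, and, added later, scaling by total reads.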

Additional observations from a re-analysis of the deposited data

Results flagged for a closer look

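Of 140 sets of 4 mice (10 genes at 7 times under each regimen), 6 held a mouse far from the other 3 by Dixon's criterion, and chance alone gives about 1 in 20. *Nos3* in DRF ZT8 replicate 1 was at 43.6 CPM against 74.5 to 80.4 CPM in the other mice of that group. That library also held the uterine epithelial markers. *Cdh5* in NRF ZT12 replicate 1 was at 212 CPM against 196 to 197 CPM, and *Kdr* in the same library was at 157 CPM against 182 to 187 CPM. *Sox17* in DRF ZT24 replicate 1 was at 24.8 CPM against 17.1 to 17.4 CPM, and in NRF ZT4 replicate 2 it was at 17.5 CPM against 23.2 to 24.5 CPM. *Tek* in NRF ZT16 replicate 2 was at 55.2 CPM against 68.1 to 69.96 CPM.

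The difference between fed and fasted mice differed between the regimens for *Flt1* (limma, adjusted p = 0.00404; 0.44 under NRF and -0.08 under DRF) and for *Nos3* (adjusted p = 0.0272; 0.85 under NRF and 0.34 under DRF). The 24 h rhythm differed between the regimens for *Nos3* (adjusted p = 5.60e-09), *Vegfa* (adjusted p = 7.14e-05) and *Angpt2* (adjusted p = 1.92e-04).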

How the results depend on the processing

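Over 104 alternatives of 11 results, 84 kept the count of called members within 1.5 times and 20 moved it. Over 218 alternatives of 20 single-gene results, 191 kept the call, 27 lost it and 0 changed direction. Without the pair of DRF libraries, 3 members were called for mean level (1 with all libraries) and 5 for the rhythm difference (3 with all). Scaling by total reads, which moved the median difference between the regimens to -0.05 over genes with a mean of at least 1 CPM (-0.01 over all genes), left 2 of the 4 fed minus fasted calls. Without ZT24, 0 members had a DRF rhythm and 0 a called phase shift (*Nos3* -9.34 h). Leaving out each replicate number in turn gave 0 to 1 members for mean level (*Tek*, or *Cdh5* without replicate 4), 2 to 5 for fed minus fasted, 1 to 1 for light minus dark, 5 to 8 at the single times, 3 to 4 for the rhythm difference and 2 to 3 for the onset of food access. It gave 4 to 7 NRF rhythms, 0 to 1 DRF rhythms, 0 to 1 phase shifts and 0 to 0 amplitude differences. Causes were not tested, but fewer mice and fewer times also mean less precision. A replicate block changed no count (4 members for fed minus fasted, 9 at the single times), and same-numbered mice shared only a number. Their median correlation was 0.03, against -0.01 for other numbers. With 4 mice per time, *Angpt2*, at 175 to 618 reads per library, has the least depth of the members.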

Other observations

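Rhythms with a period of 24 h were also counted in the lists around the members, with all libraries included, and no list was tested against another or against all genes. Of 30 endothelial surface genes, 14 passed under NRF, 8 under DRF and 5 under both. Of 15 endothelial transcription factors, 5 passed under NRF and 0 under DRF, the tests being JTK_CYCLE combined with Lomb-Scargle. Of 11 Notch and tip cell genes, 7 passed under NRF and 4 under DRF, and of 14 hypoxia response genes 9 and 3. Over all 25934 genes, 7485 (28.9%) passed under NRF, 3950 (15.2%) under DRF and 2443 under both. Among genes with a mean of at least 1 CPM, 45.0% passed under NRF and 23.7% under DRF, so the endothelial surface genes were near that share.

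Averaged over the day, the called genes were 2 of 9 angiogenesis inhibitors, 5 of 14 hypoxia response genes, 3 of 12 nitric oxide genes and 1 of 11 Notch and tip cell genes, by limma with Benjamini-Hochberg adjustment. Over all genes 22.2% were called, and 34.4% of those with a mean of at least 1 CPM. The nitric oxide count was 5 of 12 without the pair of DRF libraries. *Col18a1*, whose product yields the angiogenesis inhibitor endostatin, ran from 82.3 to 154 CPM under NRF (median 115) and from 122 to 198 CPM under DRF (median 156), a difference of 0.44 ± 0.05 (adjusted p = 2.72e-09). *Thbs2* (thrombospondin 2) was lower under DRF (-0.42 ± 0.11, adjusted p = 0.00295). In the hypoxia response list, *Vldlr*, a lipoprotein receptor, was higher under DRF by 0.44 ± 0.05 and *Pdk1*, a kinase that restrains pyruvate oxidation, by 0.34 ± 0.09. *P4ha1*, a collagen prolyl hydroxylase, was lower (-0.27 ± 0.06). In the nitric oxide list, *Ddah2* (-0.28 ± 0.05) and *Gucy1a1* (-0.21 ± 0.04) were lower and *Cav1*, the caveolar protein that binds the synthase, was higher (0.23 ± 0.08). *Notch4*, an endothelial Notch receptor, was higher by 0.23 ± 0.07.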
